A study of Drosophila melanogaster with 2 samples.

Results

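The voltage-gated sodium channel gene *para* and the genes of its auxiliary subunits, *tipE* and its 4 homologs *Teh1*, *Teh2*, *Teh3* and *Teh4*, were followed through a ChIP-seq profile of the transcription factor Lola in S2 cells. A peak was counted for a gene when the deposited list assigned it to that gene, or when its whole interval lay inside the gene or within 3 kb of one of its transcription start sites (TSSs). By this rule 1 of the 939 deposited peaks belonged to the 6 genes, and it lay upstream of *Teh1*. Thus 1 of the 6 genes had a peak, where 6.29% of all protein-coding genes had one by the same rule in the same list. The set was selected on the fold enrichment and −log10 p of the *Teh1* peak, which lead the list, so these values are described and not tested.

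S2 is a *Drosophila* cell line of embryonic origin. The series comprised 1 ChIP library and 1 library of input DNA from these cells, with no other genotype or treatment, and a single peak list deposited for the ChIP library. The library title and the protocol name Lola as the precipitated protein, whereas the antibody field of the same labels names H3K4me2, a histone mark. The paper presents the experiment as a Lola ChIP, and the peaks are called Lola peaks here, but no value in the list could settle what was precipitated. For regions picked from its top peaks, the paper also reports ChIP read by real-time PCR, in which *lola* knockdown lowered the enrichment. Those assays are not part of the sequenced library. No value has a replicate error, and the number of reads behind each peak is unknown. The 939 peaks are fewer than the binding sites that the paper speaks of, so a gene called without a peak has none in this list and may have one in a longer list. The list holds no expression values, so neither the identity of the cells nor the activity of any gene named here could be checked. Fold enrichment is the ratio deposited for each peak, whose reference level is not stated, and the −log10 p is the deposited score by which peaks are ranked.

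In flies, *para* encodes the pore-forming protein of the sodium channel that carries the action potential in neurons. TipE and the Teh proteins are membrane proteins that join this channel, and several of them raise the sodium current when they are expressed with Para in frog oocytes. *tipE* was found through mutants that are paralysed by heat. Lola is a nuclear protein with a BTB domain and zinc fingers, made in many isoforms, and is known for its roles in axon growth and in keeping neurons differentiated.

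The *Teh1* peak (FBgn0037766) lay on chromosome 3R from 9868485 to 9868947 of release 6, and was 463 bp wide with its summit at 9868745. *Teh1* lies on the minus strand from 9826081 to 9868120. Both annotated transcripts start at 9868120, so the summit was 625 bp upstream of the TSS, and the near and far edges of the peak were 365 and 827 bp upstream. The deposited list gives the same gene, a distance of -365 bp to the near edge and the promoter class of up to 1 kb. No annotated gene or transposable element overlapped the peak. The first exon of *Teh1*, from 9867668 to 9868120, is wholly 5′ untranslated, and the start codon lies 2382 bp downstream of the TSS.

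The 300 bp around the summit are shown because they carry the strongest enrichment of the list and a repeat that is visible by eye. The sequence is the plus strand of the RefSeq release 6 genome at chr3R:9868595-9868894, read 5′ to 3′ toward the neighbouring gene *Glut4EF*, with each copy of AATTCCC in capitals.
Teh1 peak: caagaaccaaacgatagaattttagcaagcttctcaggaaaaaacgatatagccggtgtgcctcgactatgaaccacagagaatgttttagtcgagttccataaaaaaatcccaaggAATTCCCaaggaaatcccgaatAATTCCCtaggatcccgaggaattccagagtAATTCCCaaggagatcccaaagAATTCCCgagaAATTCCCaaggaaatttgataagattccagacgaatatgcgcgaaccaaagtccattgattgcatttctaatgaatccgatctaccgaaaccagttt

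The fold enrichment of the *Teh1* peak was 10.1 and its −log10 p was 169, rank 1 of 939 by both. The next fold enrichment in the list was 8.88, and the ratio between the 2 values was 1.13. The next −log10 p was 167, at a wider peak in repeated sequence on chromosome 4. Over all peaks the median fold enrichment was 1.96 and the median −log10 p was 10.1. The other deposited −log10 column was 161 for the *Teh1* peak, again the highest value. None of the 31-base words of the peak occurs elsewhere in the reference genome. Among the 516 peaks called single-copy, those with less than 50% of such words found more than once, the next −log10 p was 150 and the median fold enrichment was 2.75. The peak was wider than most, since 8.53% of single-copy peaks were wider and their median width was 286.5 bp.

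**Figure D1:**
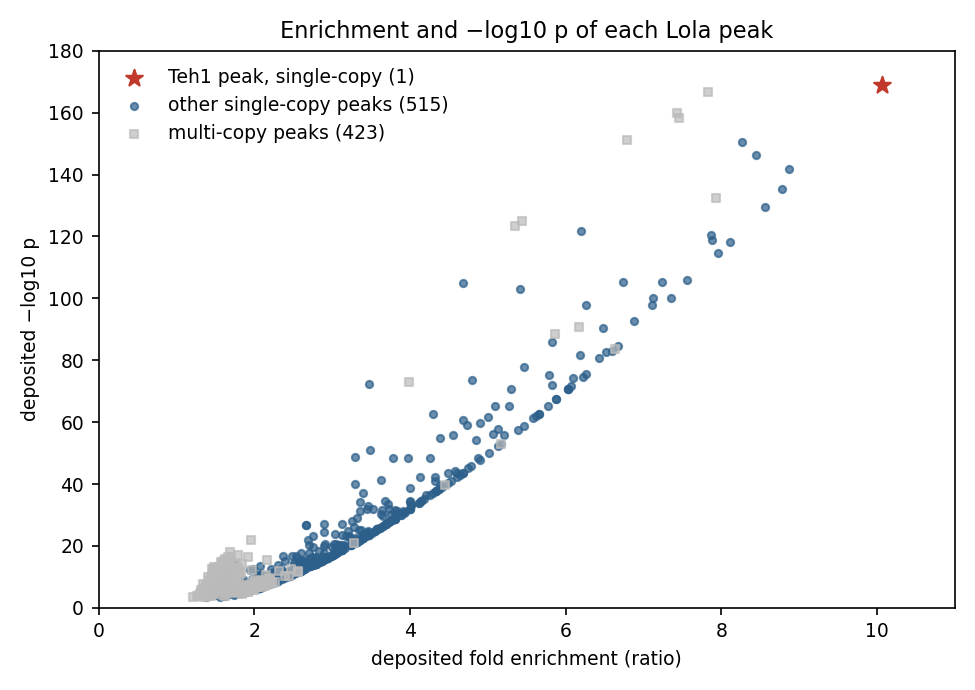
Deposited fold enrichment (horizontal axis, ratio) and −log10 p (vertical axis) of each of the 939 Lola peaks, with the *Teh1* peak as a star, other single-copy peaks as circles and multi-copy peaks as squares. The star at 10.1 and 169 is the point farthest to the right, while multi-copy peaks reach up to 167 on the vertical axis.

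The 3 single-copy peaks next below it in fold enrichment were assigned to *ftz-f1*, a nuclear receptor gene, *Vha68-2*, a proton pump subunit gene, and *nemy*. Their fold enrichments were 8.88, 8.79 and 8.56. The summit of *Vha68-2* lay 75 bp and that of *nemy* 120 bp upstream of the nearest TSS, closer than at *Teh1*. The summit assigned to *ftz-f1* lay 222 bp upstream of the nearest TSS, which is that of lncRNA:CR45939.

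A position as far upstream as at *Teh1* was found in 40 other single-copy peaks, whose summits lay within 250 bp of the *Teh1* distance on the upstream side of their nearest TSS. The lowest fold enrichment among them was 1.67, the median 3.12 and the highest 6.88. That all lie below the value of *Teh1* follows from its choice as the top peak of the list. The 3 with the highest −log10 p were assigned to *GlyP*, the glycogen phosphorylase gene, to asRNA:CR46005 and to *NLaz*, which encodes a lipocalin. *GlyP* had a fold enrichment of 4.69 with its summit 535 bp upstream. The peak of asRNA:CR46005 had 6.88 with its summit 542 bp upstream. *NLaz* had 5.47 with its summit 609 bp upstream.

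**Figure D2:**
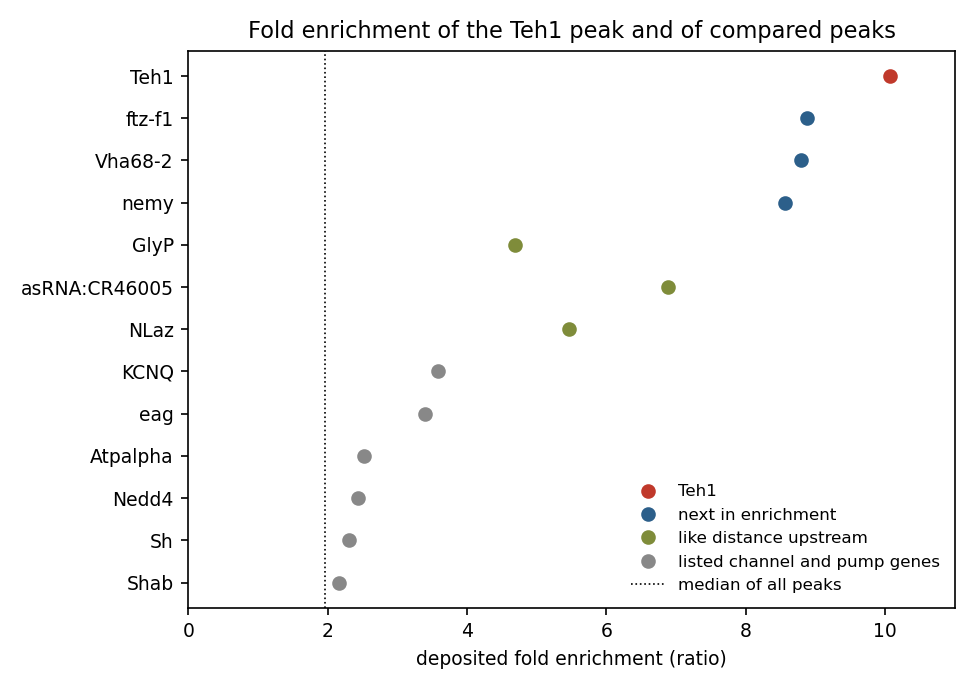
Deposited fold enrichment (horizontal axis, ratio) of the *Teh1* peak, of the 3 single-copy peaks next below it, of the 3 strongest single-copy peaks at a like distance upstream, and of the 6 peaks at listed channel and pump genes. One point is 1 peak, and the dotted line is the median of all 939 peaks, 1.96; *Teh1* is at 10.1 and the 6 listed genes lie between 2.16 and 3.58.

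*Teh1* shares its upstream region with *Glut4EF* and CG46467, which lie on the plus strand and both start at 9874681. The summit was at -5936 bp from that TSS (minus for upstream), and thus 9.53% of the way across the 6560 bp between the start sites. The deposited list names no gene but *Teh1* for this peak. On the other side, past the 3′ end of *Teh1*, the next annotated gene was lncRNA:CR42858, which ends 1216 bp away.

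The peaks on either side of the *Teh1* peak lay beyond *Teh1* and beyond *Glut4EF*. The nearest peak on the side of the *Teh1* gene body was 83.7 kb away at the promoter of CG8500, from 9784372 to 9784743, with a fold enrichment of 6.10 and rank 43. The nearest peak on the other side was 207.7 kb away, beyond *Glut4EF*, from 10076676 to 10077037, with a fold enrichment of 5.42 and rank 23. It was assigned to CG5361, and the TSS nearest to its summit is that of *Alp13*, an alkaline phosphatase gene. Over all 939 peaks the median distance to the nearest other peak was 9.27 kb, and 23.3% of peaks were farther from theirs than the *Teh1* peak. The 939 include multi-copy peaks. The distance among single-copy peaks alone was not computed, so it is unknown whether the *Teh1* peak is isolated for its kind. No second peak was found in the 42040 bp of *Teh1*, which include an intron of 36173 bp.

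The repeat at the summit was read from the sequence after it had been extracted, so its values are descriptions. AATTCCC was searched on both strands, as AATTCCC and GGGAATT, and 5 copies were found in the peak, all on the plus strand. They started 33 and 11 bp before the summit and 20, 42 and 53 bp after it. The steps between them were 22, 31, 22 and 11 bp. In the same 300 bp around the other 938 summits no peak had more than 2 copies, and 865 of the 939 had none. At least 1 copy was found in 7.88% of all summit windows, in 5.62% of single-copy ones, in 3.99% of the 19630 promoters of protein-coding genes (250 bp before to 50 bp after each TSS) and in 4.38% of the 300-bp windows that tile the 7 chromosomes. None of the 456591 genomic windows held 5 copies. These windows stand side by side, and the last *Teh1* copy crosses an edge between neighbours.

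The same repeat was measured without a word. Shifted against itself by 11 bases, the 100 bp around the *Teh1* summit had 61.8% of its bases unchanged, and by 22 bases 55.1%. The median of all peaks at a shift of 11 bases was 24.7%. That shift is the one at which the *Teh1* peak is highest. With each peak taken at its own best shift, the median was 36.1%. Over shifts of 5 to 30 bases, 10 of the 939 peaks reached the highest likeness of the *Teh1* peak, and among single-copy peaks *Teh1* alone did. Of 456591 genomic windows of 100 bp, 0.374% reached it, and of promoters, in the 100 bp just before the TSS, 0.0713%. The *Teh1* summit thus lies in a degenerate tandem repeat with a unit of 11 bp, in sequence with no second copy elsewhere.

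**Figure D3:**
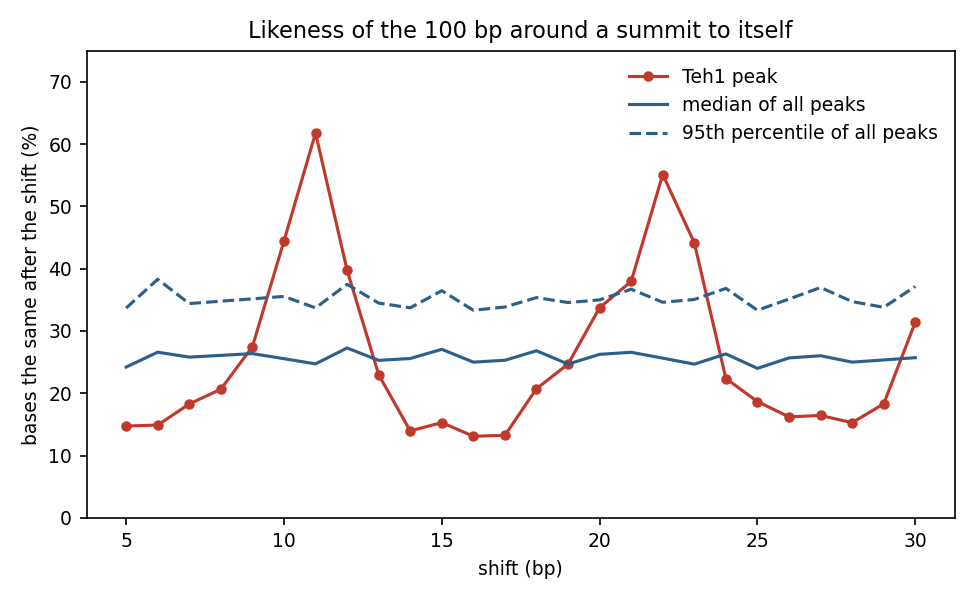
Share of bases that stay the same (vertical axis, %) when the 100 bp around a summit are shifted against themselves by 5 to 30 bp (horizontal axis), for the *Teh1* peak (points), with the median (solid line) and the 95th percentile (dashed line) of the 939 peaks at each shift. The *Teh1* line stands at 61.8% at 11 bp and at 55.1% at 22 bp, and lies near or below the median of the peaks at most other shifts.

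The asRNA:CR46005 peak at a like distance upstream of its TSS is shown beside *Teh1* because it too holds AATTCCC near its summit, in 2 copies. The *GlyP* peak is shown for the word AAAGCT, which marks many of the other summits. Both are 100 bp of the plus strand, at chr3L:6124806-6124905 and chr2L:2130228-2130327, with copies of either word on either strand in capitals.
asRNA:CR46005 peak: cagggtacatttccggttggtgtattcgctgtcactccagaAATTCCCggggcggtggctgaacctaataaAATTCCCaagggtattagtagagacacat
GlyP peak: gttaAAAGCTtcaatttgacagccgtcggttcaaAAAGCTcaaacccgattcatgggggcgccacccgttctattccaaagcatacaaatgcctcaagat

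AAAGCT and its reverse complement AGCTTT were present within the 100 bp around the summit in 49.03% of single-copy peaks, but not in those of *Teh1*. The 300 bp around the *Teh1* summit had no copy either, whereas 65.7% of single-copy peaks, 21.7% of promoters and 17.9% of genomic windows of that length had at least 1. The *Teh1* peak held the word only outside that window, as 1 AAAGCTTT that counts once on each strand, 167 bp before the summit. The stretch is shown because it is the one place in the peak where the word occurs, at chr3R:9868568-9868597.
Teh1 peak before the window: agtggaataaAAAGCTTTaagcttgtacaa

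GAGAG, the core of the sites read by the GAGA factor in flies, was absent from the *Teh1* peak, as was its reverse complement CTCTC. The word was present in the 300 bp around 43.6% of single-copy summits, in 33.1% of promoters and in 30.3% of genomic windows of that length. The peak was AT-rich, with a GC content of 36.9%, against a median of 45.7% over single-copy peaks, of which 17.6% were lower.

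The other 4 auxiliary subunit genes lie together on chromosome 3L, and none had a peak. *tipE* (FBgn0003710) lies on the plus strand from 4188499 to 4193788. *Teh2* (FBgn0035505) lies on the minus strand from 4178980 to 4188023 and starts 476 bp from *tipE* in the opposite direction. *Teh3* (FBgn0040697), from 4182645 to 4184663, lies within *Teh2* on the same strand. *Teh4* (FBgn0035504), from 4174859 to 4178270, follows on the minus strand. All of *Teh2*, *Teh3* and *Teh4* and most of *tipE* lie within CG18675, a gene on the plus strand that runs from 4173884 to 4192968. *VhaM9.7-c*, a gene of the proton pump family, lies within *Teh2*. None of these genes was assigned a peak or overlapped one.

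The peaks that flank the cluster were those of *Chd64*, which encodes a calponin-like protein, on the *Teh4* side, and of CG14997 on the *tipE* side. The *Chd64* peak, from 4122291 to 4122562, had a fold enrichment of 2.996 and rank 229. The nearer CG14997 peak, from 4239421 to 4239997, had a fold enrichment of 3.36 and rank 138. The distance from a TSS to the nearest peak was 50.9 kb for *tipE*, 51.4 kb for *Teh2*, 54.8 kb for *Teh3* and 55.7 kb for *Teh4*. These 4 distances measure 1 stretch of chromosome and are not independent of each other.

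*para* (FBgn0285944) lies on the minus strand of chromosome X from 16455027 to 16533096, with 60 annotated transcripts that start at 3 sites between 16527414 and 16533096. It had no peak in its 78070 bp or near any of the 3 start sites, and neither had *Cnx14D*, a calnexin gene that lies within it. The nearest peak was that of *dpr18*, an immunoglobulin family gene, from 16063454 to 16063692, 391.3 kb past the 3′ end of *para* and 463.7 kb from its nearest TSS. On the other side the nearest peak was 1459 kb away and was assigned to *Sh*, which encodes the Shaker potassium channel. The chromosome had 121 peaks in all.

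**Figure D4:**
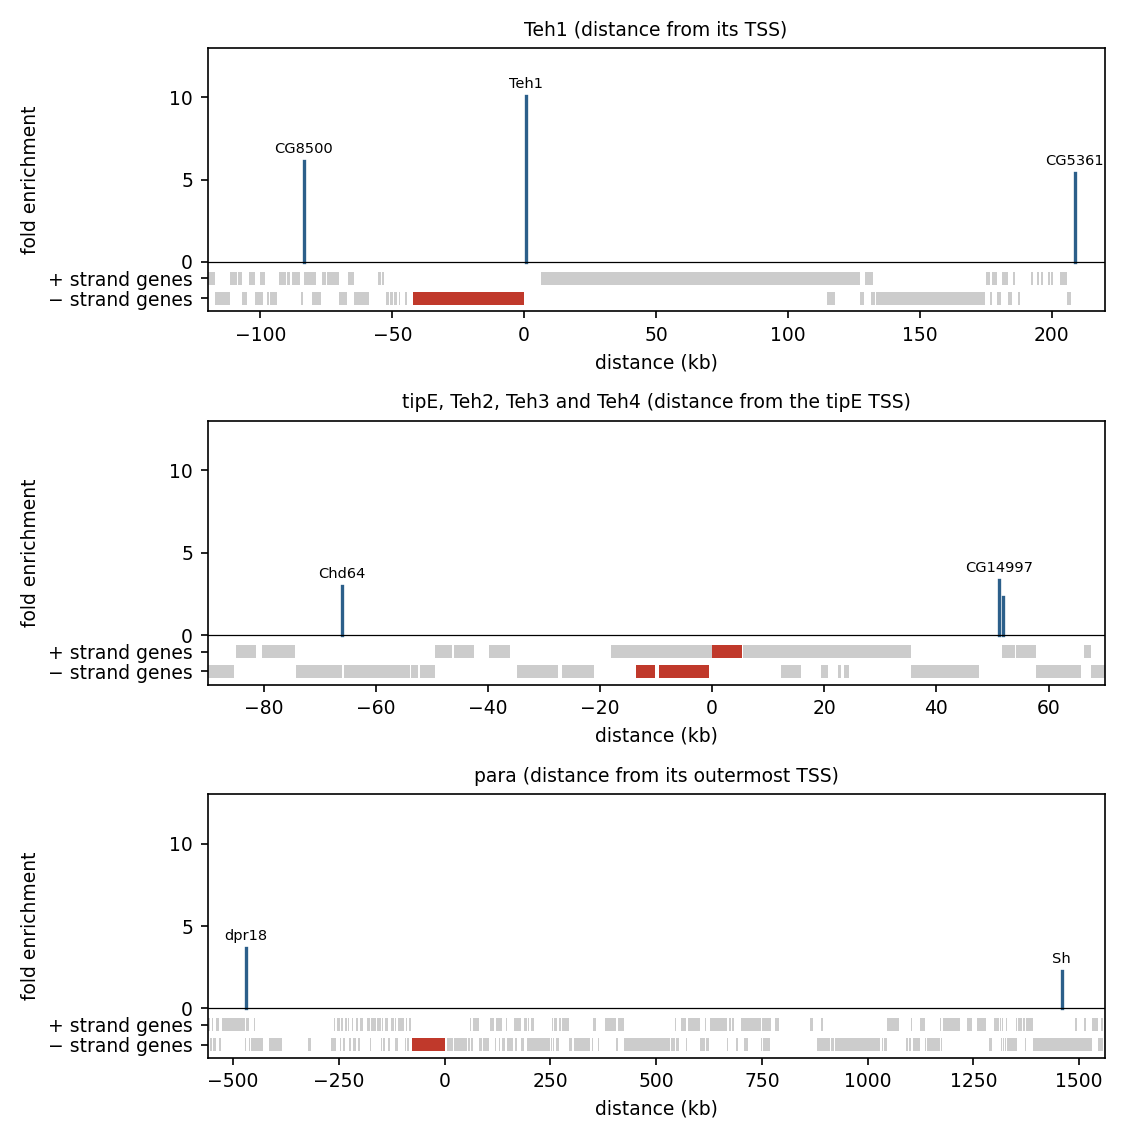
Lola peaks around *Teh1*, around the *tipE* cluster and around *para*, as lines at their position (horizontal axis, distance from the named TSS in kb, rising along the reference chromosome) with a height equal to the deposited fold enrichment (vertical axis, ratio). Bars below are protein-coding genes by strand, the sodium channel and subunit genes in red (*Teh3* lies within the *Teh2* bar); the panels differ in scale, and a red gene has a peak at its start only in the top panel.

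Of all 13968 protein-coding genes on the 7 chromosomes, 879 (6.29%) had a peak by the rule used for the 6 genes. The median distance from a TSS to the nearest peak was 80.9 kb, with quartiles at 29.5 and 179 kb. At *Teh1* the distance was 0.365 kb, and 2.82% of protein-coding genes had a nearer peak. At the cluster the distances lay below the median, since between 37.0 and 39.3% of genes had a nearer peak. *para* was among the genes farthest from any peak, with 95.02% of them nearer to one. The rule's limit of 3 kb fell in a wide gap, with *Teh1* at 0.365 kb inside it and *tipE* at 50.9 kb as the first gene outside it.

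**Figure D5:**
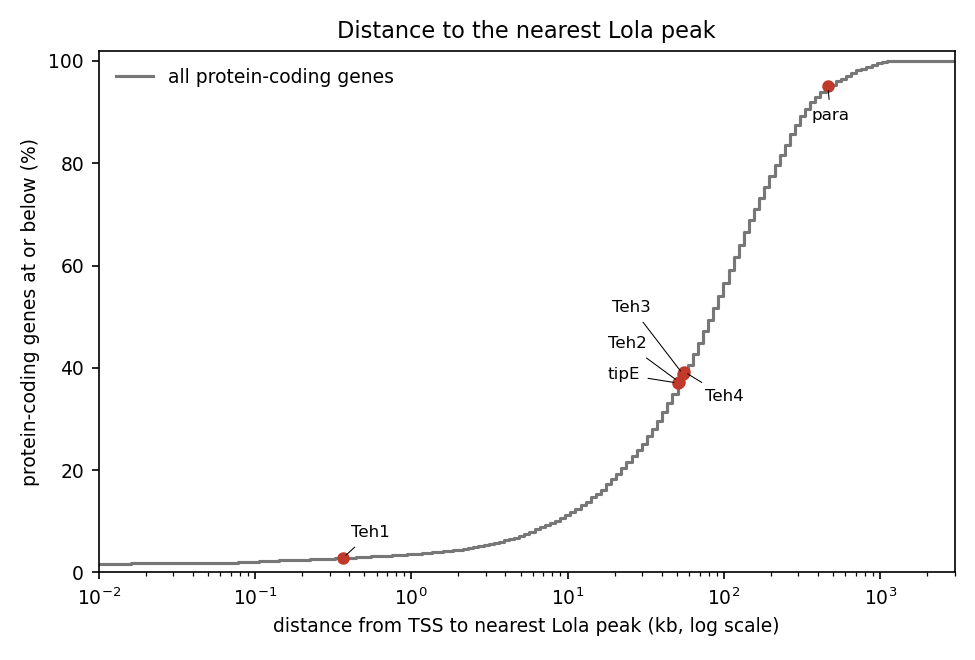
Cumulative share of protein-coding genes (vertical axis, %) by the distance from their TSSs to the edge of the nearest Lola peak (horizontal axis, kb, log scale), with the 6 sodium channel genes as points. *Teh1* is at 0.365 kb, the 4 genes of the cluster lie between 50.9 and 55.7 kb, and *para* is at 463.7 kb.

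The words that occur in the *Teh1* peak were counted at the start sites of the other genes. Within 3 kb on both sides of a TSS, AATTCCC occurred 5 times at *Teh1*, all of them in the peak, and 0 or 1 times at each TSS of the other 5 genes. Over 19630 TSSs the median was 1, and 0.408% had 5 or more. AAAGCT occurred 7 times at *Teh1*, 6 times at *tipE* and at the upstream TSS of *Teh2*, 2 times at *Teh3*, *Teh4* and the other TSS of *Teh2*, and 3 or 4 times at the start sites of *para*, against a median of 4.

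AAAGCT was thus present where no peak was called, and 40.9% of all 19630 TSSs had 5 or more copies within 3 kb. The 300 bp before the *tipE* TSS, which reach to 176 bp from the *Teh2* TSS, hold 3 copies. They are shown for comparison with the *Teh1* summit, which has none, at chr3L:4188199-4188498 on the plus strand, with the word in capitals.
tipE upstream: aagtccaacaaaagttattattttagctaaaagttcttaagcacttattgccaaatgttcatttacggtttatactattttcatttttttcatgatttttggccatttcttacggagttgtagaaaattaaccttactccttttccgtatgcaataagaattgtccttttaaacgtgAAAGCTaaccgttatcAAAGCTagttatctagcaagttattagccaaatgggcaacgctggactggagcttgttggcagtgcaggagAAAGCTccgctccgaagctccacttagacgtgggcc

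To place the sodium channel genes among related ones, 34 genes of other voltage-gated and leak channels, their partner proteins, the sodium pump and factors that act on *para* were looked up. Of these, 6 (17.6%) had a peak, against 6.29% of all protein-coding genes. Gene length went along with this share. Of the protein-coding genes at least as long as *Teh1*, 22.1% (95 of 429) had a peak, and of the 15 listed genes of that length 4 had one. Of the 19 shorter listed genes 2 had one, and the share among shorter protein-coding genes was not computed. What part length has in the share was not tested.

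Among the voltage-gated potassium channels 4 of 11 had a peak. All 4 were among the 8 channel genes at least as long as *Teh1*, the length at which 22.1% of protein-coding genes had one, and 2 of the 11, *eag* and *KCNQ*, had a peak with a −log10 p of at least 10. *Sh* had a fold enrichment of 2.30 with the summit at -1474 bp from its nearest TSS, inside the gene. *Shab*, which encodes a delayed rectifier channel, had a fold enrichment of 2.16 with the summit 13843 bp downstream of its nearest TSS, and the deposited list assigns that peak to CG9970. *eag*, which encodes the ether-a-go-go channel, had a fold enrichment of 3.39 with the summit at -1395 bp, outside the gene, at a peak assigned to lncRNA:CR44831. *KCNQ* had 3.58 with the summit at -5271 bp from its nearest TSS, inside the gene, at a peak assigned to *mlt*.

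The pump gene *Atpalpha*, which encodes the catalytic subunit that restores the sodium gradient, had a fold enrichment of 2.53 with the summit 11 bp past a TSS. *Nedd4*, which encodes a ubiquitin ligase, had 2.44 with the summit 35 bp past a TSS. No peak was found at the 6 voltage-gated calcium channel genes, the 4 potassium channel partners, the 3 *nrv* genes of the pump, or the 5 other cation channel and partner genes, among them *NaCP60E*, the gene most like *para* in sequence. *mle*, which encodes a helicase reported to act on *para* transcripts, and *pum*, which encodes an RNA-binding repressor, had none either, nor had *Ank2*. By the same rule 6.29% of all protein-coding genes had a peak, so few would be found in classes this small. Differences between the classes were not tested.

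Because *Teh1* was chosen as the top of the list, the 6 peaks could only be weaker. Their highest rank was 171, for *KCNQ*. The word AATTCCC was in none of them. Over the whole peak, the word AAAGCT occurred in 5 of the 6. There were 5 copies at *Sh*, 4 at *KCNQ*, 3 at *eag*, 2 at *Atpalpha* and 1 at *Nedd4*. By the same count the *Teh1* peak held 2. In the 300 bp around the summit alone, 65.7% of single-copy peaks held the word. Within the 100 bp around the summit there were 4 copies at *Sh*, 3 at *KCNQ* and 1 at *Atpalpha*. There was none at *eag*, *Shab* and *Nedd4*, as at *Teh1*. The *Sh* and *Atpalpha* summits are shown as examples that hold the word. They lie at chrX:17992103-17992202 and chr3R:20957695-20957794 on the plus strand, with either strand of the word in capitals.
Sh peak: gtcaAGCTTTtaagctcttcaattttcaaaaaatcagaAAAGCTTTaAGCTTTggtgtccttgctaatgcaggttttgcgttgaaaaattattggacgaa
Atpalpha peak: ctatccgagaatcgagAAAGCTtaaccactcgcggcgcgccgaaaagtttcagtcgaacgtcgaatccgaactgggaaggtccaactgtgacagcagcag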

How the data were processed

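The authors deposited 1 peak list for the Lola ChIP library; the input library was not analysed here. The submitters' processing notes name Bowtie2, SAMtools, MACS2, ChIPseeker and the build BDGP6; versions and settings are not given in the sources used here. The deposited fold enrichment of a peak is a ratio to a background level that the sources used here do not define. The deposited −log10 p has a partner column under the same heading, whose lowest value is 0.0487 on the linear scale, as a q-value below 0.05 would be. The authors called peaks on 1 ChIP library, so nothing was pooled.

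Positions were read on release 6 with the Ensembl release 115 annotation. For 927 peaks the assigned transcript was found there, and for 924 of them it had the same start and end. Sequences came from the RefSeq release 6 assembly. Distances are to annotated TSSs, transposable elements left out.

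No test was run, because there is no replicate and the genes were chosen from these peaks. The 6 genes, the 34 listed genes and the word AAAGCT were chosen with earlier results of these data known. AATTCCC and the shift measure were chosen after the *Teh1* sequence was read. Named genes were the 6 genes, their neighbours, the genes of flanking peaks, listed genes with a peak, and the 3 nearest single-copy peaks in fold enrichment and 3 in position; listed genes without a peak were named to account for the list. The assignment rule and the word count were tested on simulated data. The tools were Python 3.11.15, matplotlib 3.10.9, pandas 2.3.3 and numpy 2.4.6.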

Additional observations from a re-analysis of the deposited data

How the results depend on the processing

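The 6 genes kept 1 peak, at 1 gene, under all 10 alternatives, which were the stricter thresholds (fold enrichment of at least 2, −log10 p of at least 10, single-copy peaks only), windows of 1 and 10 kb, other kinds of overlap, start sites only, the deposited assignment only and, chosen after seeing the data, the RefSeq annotation. The number of listed genes with a peak was 4 with a −log10 p of at least 10 or with start sites only, where 4.36% and 5.86% of all protein-coding genes had a peak, and 8 with the 10 kb window, where 11.8% had one, against 6 and 6.29%; under the other settings it was 5 or 6, with shares of 4.20 to 6.55%. The *Teh1* distance to the TSS was -365 bp from the nearest edge and -596 bp from the centre of the peak, in place of -625 bp, by construction. The *Teh1* peak had rank 2 by −log10 p per bp of width, behind that of *Ald*, and rank 1 under the other 3 rankings. The number of AAAGCT words was 0 in the 100 bp and 0 in the 300 bp around the summit, against 2 in the whole peak. For the core AAGCT it was 7 in the whole peak. An AAGCTT counts once on each strand, so 7 is more than the number of separate sites. No paired analysis was possible because the series has 1 ChIP library. Unknown depth means that the lack of a peak at *para* and the *tipE* cluster shows only that none is in the list used here.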

Other observations

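Counted over whole peaks and on both strands, AATTCCC occurred 5 times in the *Teh1* peak and 4 times in each of the next 4 peaks by −log10 p, which lie on chromosomes 4 and X and were assigned to *Cadps* and lncRNA:CR40469. These 4 peaks were 1038 to 1134 bp wide, against 463 bp at *Teh1*, 100% of their 31-base words are repeated in the release 6 genome, and 1 copy of the word lay in the 300 bp around each summit. They held no AAAGCT. Between any pair of the 4 peaks, 88.5 to 100% of the 31-base words of one were found in the other, so their counts are not separate observations. The word was chosen after the *Teh1* sequence was read.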
